A study of Mus musculus with 6 samples.

Results

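The 10 genes described here mark or supply the capillary endothelium of the lung: Car4, Ednrb, Apln and Tbx2 for aerocytes, Aplnr, Gpihbp1, Plvap and Kit for general capillary cells, and Kitl and Tbx3 beside them. They were chosen by name from the 49568 rows of the deposited table of normalized counts, all 10 were found, and all 10 passed the filter on low values that left 16879 genes to test. Both groups, Col6a1-/- and wildtype, were C57BL/6 mice 6 weeks old, and the comparison asks how lung gene expression differs where a collagen VI chain is disrupted. Each genotype gave 3 RNA-seq libraries of right lobes taken after perfusion with cold saline through the right ventricle, and each library pooled RNA from 2 animals, so 12 animals entered in all. The labels do not say how the Col6a1 allele was made, nor the sex of the mice. Whole lobes were sequenced, so a lower value can come from fewer cells of a type or from less RNA per cell, and these cannot be told apart.

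The alveolar capillary bed of the mouse holds intermingled endothelial cell types. Aerocytes are large, thin cells that face the alveolar surface where gas is exchanged, and general capillary cells are smaller cells that regulate vessel tone and can renew both types. Several of the 10 genes act in pairs: apelin (Apln) is made by aerocytes and its receptor (Aplnr) sits on general capillary cells, and Kit, a receptor tyrosine kinase of general capillary cells, binds the stem cell factor encoded by Kitl. Collagen VI forms beaded filaments next to basement membranes, vessel walls among them.

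The libraries held 28055414 to 37904878 reads in genes. Col6a1 itself stood at 49.5% of the wildtype level in Col6a1-/- lungs (log2 fold change -1.01, SE 0.10, limma adjusted p 0.00643), with no overlap between genotypes. Transcripts of the Y chromosome put the male share of the pools at 72.5%, 100% and 51.1% in Col6a1-/- replicates 1, 2 and 3, and at 0.347%, 3.35% and 51.5% in wildtype replicates 1, 2 and 3. These shares are relative to Col6a1-/- replicate 2, where Xist, the female-specific RNA, had 28.4 normalized counts, against 10486.5 or more in every other library. They are approximate, because single Y-linked genes differed. Ddx3y had 1639 normalized counts in Col6a1-/- replicate 1 and 1759 in replicate 2, whereas Kdm5d had 616 and 1176. Genotype is therefore partly confounded with sex. Red cell, fat and cardiac muscle genes also moved with genotype, though limma called none of them (6, 7 and 7 at an unadjusted p below 0.05). In the authors' deposited table, 6 of 7 red cell, 2 of 8 fat and 4 of 10 cardiac muscle genes were higher in Col6a1-/- lungs and none lower, beside 5.05% of all genes called in either direction. All 7 tested red cell genes, all 8 tested fat genes and 9 of 10 cardiac muscle genes had higher estimates in Col6a1-/- lungs. Red cell genes summed to 62121 to 102392 normalized counts in Col6a1-/- and 41776 to 47821 in wildtype libraries, and cardiac muscle genes to 24859.6 to 26887 in Col6a1-/- and 18197.5 to 24411 in wildtype libraries. The part of blood and neighbouring tissue in the results below was not tested, and that of sex only by the fits with male share as a covariate.

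No member passed the limma threshold (an adjusted p below 0.05 over all 16879 genes), a threshold that 11 genes, or 0.0652%, did pass. Of these 11, 3 were higher and 8, or 0.0474% of tested genes, lower in Col6a1-/- lungs. The split was 3 higher and 23 lower with each library centred on its median, and 4 higher and 5 lower with each centred on its pan-endothelial genes. At an unadjusted p below 0.05, limma left 2 members, Plvap and Kit, beside 20.3% of all tested genes. In the authors' deposited table, 1 of the 10 members had an adjusted p below 0.05, Plvap, which was lower, beside 5.05% of genes with an adjusted p, 3.18% of them lower. DESeq2 on the recovered reads called the same member beside 5.06% of genes, edgeR called none, and both gave 2 members an unadjusted p below 0.05. For the gene lists below, edgeR called Vwf and Slc6a2 and no other gene. For 3 members every Col6a1-/- library lay on one side of every wildtype library, Plvap and Kit below and Ednrb above, as it did for 24.9% of all tested genes (14.2% below and 10.7% above). Estimates were higher for 5 members and lower for 5. The median log2 fold change was 0.0014 over the 4 aerocyte genes and -0.13 over the 4 general capillary genes. It was 0.0098 over all genes tested and also -0.13 over 24 pan-endothelial genes.

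**Figure D1:**
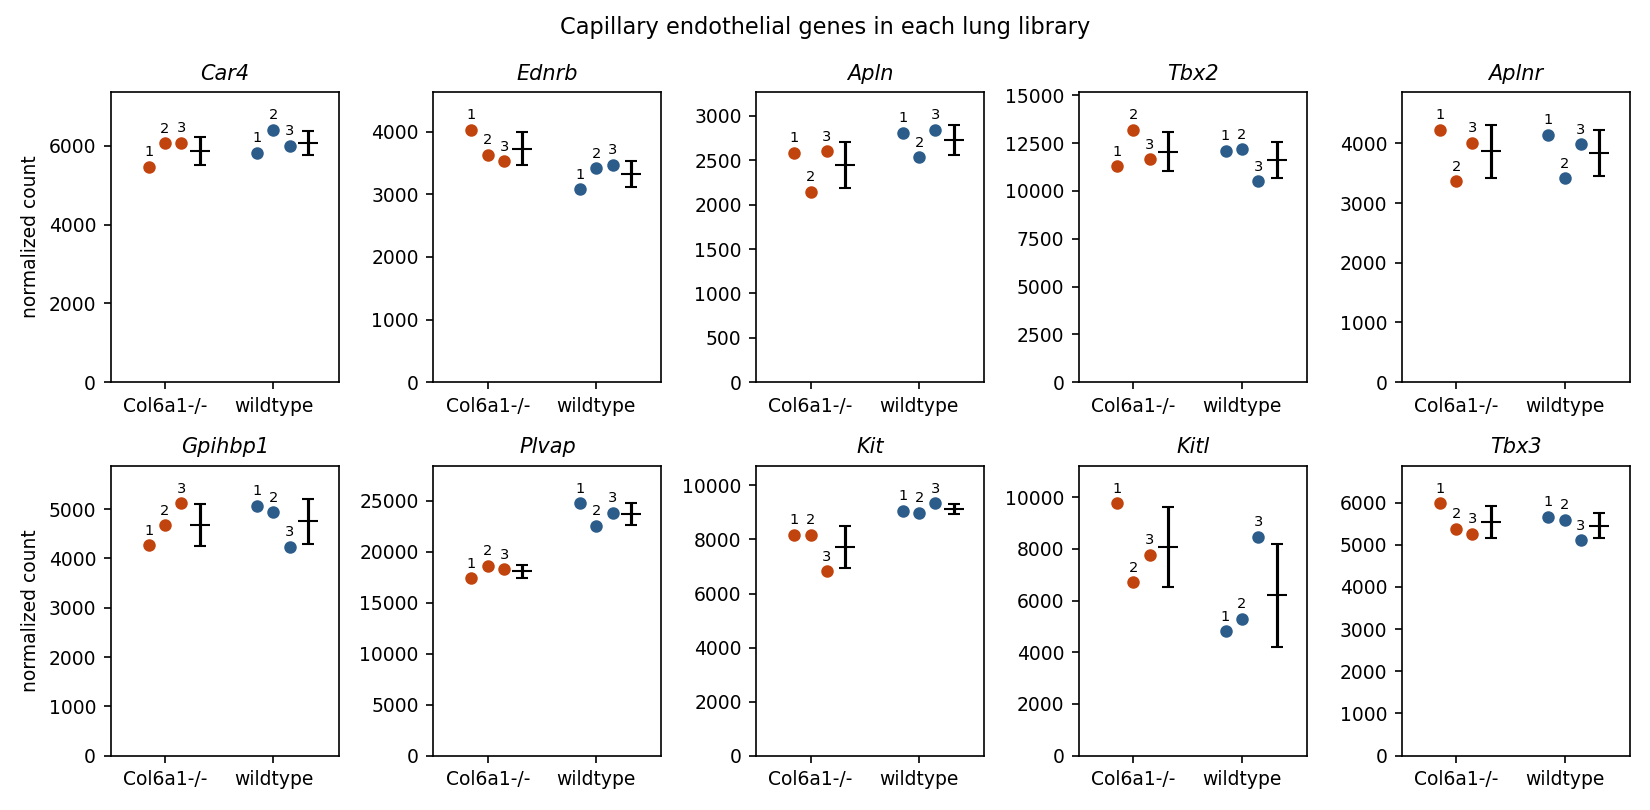
Normalized count (vertical axes, from 0) of each gene in Col6a1-/- libraries (red, left) and wildtype libraries (blue, right); numbers are replicates, and the black bar is the mean with its SD over 3 libraries. Plvap and Kit lie lower and Ednrb higher in every Col6a1-/- library, Kitl spreads most, and the other genes overlap.

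Per kilobase of its longest annotated transcript, Plvap was the most abundant member and Apln and Ednrb the least. This scale sets different genes side by side, but whether the longest transcript is the one expressed was not tested. Plvap averaged 9095 ± 314 normalized counts per kilobase in Col6a1-/- lungs and 11921 ± 552 in wildtype lungs (SD, n = 3 each, as for all means below). Car4 followed with 4672 ± 278 in Col6a1-/- and 4839 ± 238 in wildtype lungs, and then Tbx2 with 3319 ± 280 in Col6a1-/- and 3196 ± 260.1 in wildtype lungs. The ranges of Tbx2 and Gpihbp1, next in the order, overlapped in wildtype but not in Col6a1-/- lungs. Kit and Kitl followed. In Col6a1-/- lungs Kit at 1474 ± 149 and Kitl at 1431 ± 273 overlapped, whereas in wildtype lungs Kit at 1742 ± 35.4 lay above every Kitl value, with Kitl at 1097 ± 351. Tbx3 and Aplnr came next and overlapped each other in both genotypes. The last members were Ednrb and Apln, in a different order in each genotype. Ednrb lay above Apln in all Col6a1-/- libraries, with means of 908 ± 64.3 for Ednrb and 776 ± 82.3 for Apln, and overlapped it in wildtype libraries, with 809.8 ± 51.1 for Ednrb and 867 ± 53.4 for Apln.

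Plvap (ENSMUSG00000034845.6, chromosome 8, 71497765 to 71511752, minus strand, GRCm38) encodes the protein that forms the thin diaphragms across fenestrae and caveolae of endothelial cells. Plvap had 17379.6, 18593 and 18242 normalized counts in Col6a1-/- replicates 1, 2 and 3, against 24722, 22538 and 23800.2 in wildtype replicates 1, 2 and 3. The highest Col6a1-/- library lay well below the lowest wildtype library, and the coefficient of variation was the smallest of the 10 genes in Col6a1-/- lungs, 3.46%, with 4.63% in wildtype lungs. Plvap averaged 18071.5 ± 624 in Col6a1-/- and 23687 ± 1096 in wildtype lungs, 76.3% of wildtype, with a 95% interval of the fitted fold from 66.5% to 87.7%. Its log2 fold change of -0.39 (SE 0.09, limma adjusted p 0.0942) missed the threshold, and 1.44% of tested genes had an unadjusted p as small or smaller. The authors' deposited table gives it a log2 fold change of -0.36 and an adjusted p of 0.00316.

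The Plvap estimate kept its sign and stayed between -0.43 and -0.29 in all 17 alternative fits. It passed the threshold with each library's trend on length and GC content of transcripts removed (-0.43, adjusted p 0.0455), where 81 of 16435 genes passed. It also passed without wildtype replicate 3 (-0.39, adjusted p 0.0441), where 1383 of 16744 genes passed. With DESeq2 it passed (-0.39, adjusted p 0.00316) beside 742 of 14672 genes. Without wildtype replicate 3 the unadjusted limma p of Plvap was larger, 0.00312 against 0.00136, and the wildtype pools left are nearly all female. With the male share of the pool as a covariate the Plvap estimate was -0.41 (SE 0.15, adjusted p 0.617). That fit called no gene at all (1306 genes at an unadjusted p below 0.05).

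The genes of diaphragms and caveolae, Plvap included, differed in direction, 5 of 10 with higher and 5 with lower estimates. None of the 10 passed the limma threshold, 3 had an unadjusted p below 0.05, and in the authors' deposited table Plvap alone passed. The median log2 fold change of the list was 0.02. The genes with the smallest unadjusted p after Plvap were Ehd2, an ATPase at the neck of caveolae, at -0.22 (adjusted p 0.21), Cav2, a caveolin, at 0.43 (0.224), Pacsin2, a membrane-bending protein, at -0.17 (0.321) and Murc, a muscle cavin, at 0.49 (0.353). Cav1, the main caveolin of endothelium, overlapped between genotypes, with a log2 fold change of 0.13 and an adjusted p of 0.553 by limma.

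Kit (ENSMUSG00000005672.12, chromosome 5, 75574916 to 75656722, plus strand) had 8176, 8179 and 6823 normalized counts in Col6a1-/- replicates 1, 2 and 3, against 9064, 8983 and 9337 in wildtype replicates 1, 2 and 3. All Col6a1-/- libraries lay below all wildtype libraries, by the widest margin in Col6a1-/- replicate 3. The means were 7726 ± 782 in Col6a1-/- and 9128 ± 185 in wildtype lungs, 84.6% of wildtype, and the 95% interval of the fitted fold ran from 72.9% to 97.6%. The log2 fold change was -0.25 (SE 0.10, limma adjusted p 0.189), and the authors' deposited table gives -0.22 with an adjusted p of 0.169. The estimate was -0.16 without Col6a1-/- replicate 3, -0.14 with the length and GC trend removed and -0.40 with male share as a covariate (adjusted p 0.475, 0.277 and 0.618), and no alternative fit called it.

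Mast cells also carry Kit. Of the 10 mast cell genes listed, 7 were tested and 5 had higher estimates in Col6a1-/- lungs, none of them called and none with an unadjusted p below 0.05. The protease and receptor genes that define mast cells were close to 0 beside Kit: Cpa3 had 15.3 to 24.9 normalized counts in Col6a1-/- and 10.98 to 19.7 in wildtype libraries, and Mcpt4 had 19.3 to 35.0 in Col6a1-/- and 6.78 to 24.2 in wildtype libraries. Tpsab1 was at 0 in 2 of 3 Col6a1-/- libraries and in 1 of 3 wildtype libraries. The summed level of the list was 6180 to 8601 in Col6a1-/- and 7945 to 9193 in wildtype libraries. Nearly all of it came from Gata2 and Hdc, which other lung cells express too. Both had lower estimates in Col6a1-/- lungs, -0.22 for Gata2 and -0.16 for Hdc (limma adjusted p 0.337 and 0.564). The part of mast cells in the Kit values was not tested.

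Kitl (ENSMUSG00000019966.18, chromosome 10, 100015630 to 100100416, plus strand), the ligand of Kit, had a higher estimate in Col6a1-/- lungs and was the most variable member. It lies on the same chromosome as Col6a1, 23.3 Mb away. Kitl had 9758, 6719 and 7768 normalized counts in Col6a1-/- replicates 1, 2 and 3, against 4822, 5304 and 8467 in wildtype replicates 1, 2 and 3. Wildtype replicate 3 stood above Col6a1-/- replicates 2 and 3, so the genotypes overlapped. The means were 8082 ± 1544 in Col6a1-/- and 6198 ± 1980.3 in wildtype lungs, 130.4% of wildtype, with a log2 fold change of 0.41 (SE 0.20, limma adjusted p 0.273). The authors' deposited table gives Kitl a smaller log2 fold change, 0.21, with an adjusted p of 0.512. DESeq2 on the recovered reads gave 0.38 with the same unadjusted p, 0.217. The smaller deposited value is therefore not a weaker test result. For Plvap and Kit too, DESeq2 on the recovered reads gave larger changes than the deposited ones, -0.39 and -0.24, at nearly the same p. The 95% interval of the fitted fold, from 98.0% to 180.5% of wildtype, was the widest of the 10.

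The Kitl estimate moved more than any other with the processing. It was 0.66 without wildtype replicate 3 (adjusted p 0.0248), where 1383 of 16744 genes passed. Without Col6a1-/- replicate 1 it was 0.27 and without wildtype replicate 1 it was 0.25 (adjusted p 0.5 and 0.629). With male share as a covariate it was 0.04 (adjusted p 0.98). The wildtype pools left without replicate 3 are nearly all female, so sex and genotype cannot be told apart in that fit. The nearly all-female pools, wildtype replicates 1 and 2, held the lowest Kitl values. The mixed pools, Col6a1-/- replicates 1 and 3 and wildtype replicate 3, held the highest, and the all-male pool, Col6a1-/- replicate 2, lay between them. With the length and GC trend removed, the SD of the log2 values was 0.09 in Col6a1-/- and 0.17 in wildtype lungs, against 0.27 in Col6a1-/- and 0.43 in wildtype lungs before, and the estimate was 0.21 (SE 0.09, adjusted p 0.24). The longest Kitl transcript, of 5648 bases and 39.3% GC, is the longest and the lowest in GC among the 10.

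**Figure D2:**
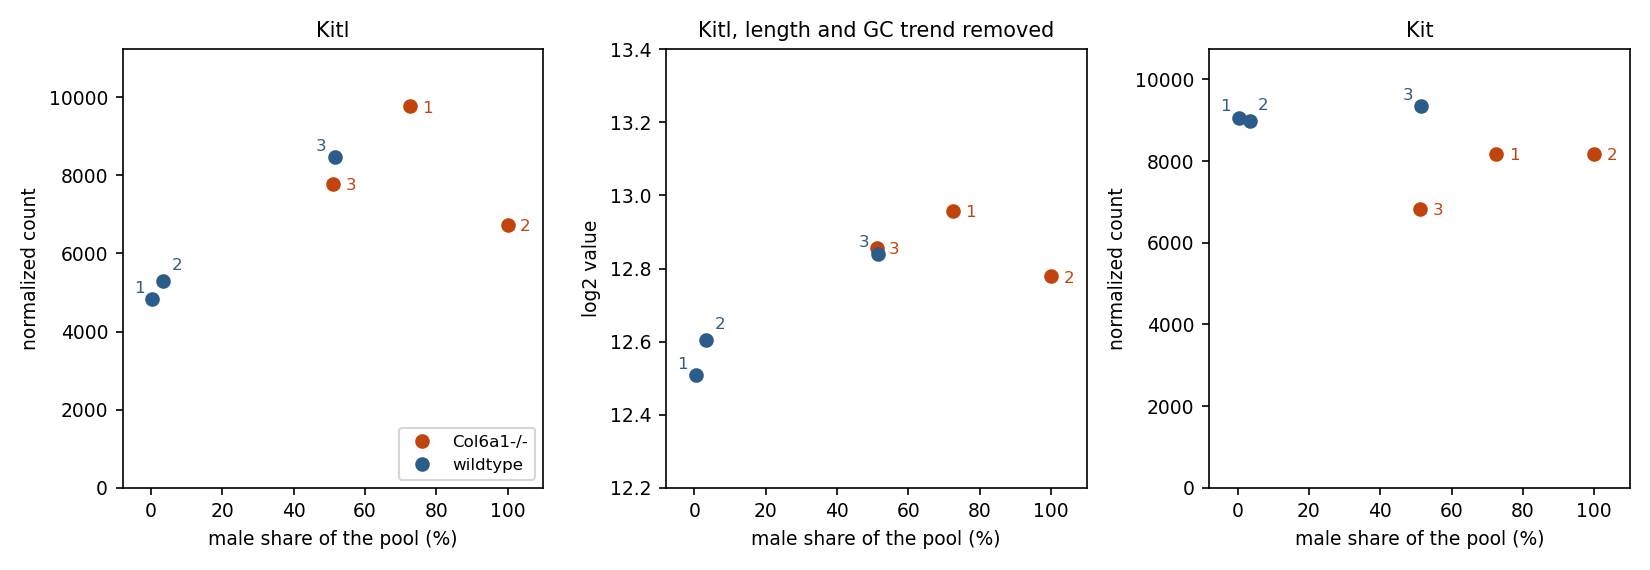
Level of Kitl (left), of Kitl after removal of each library's length and GC trend (middle, log2 scale not starting at 0) and of Kit (right), against the male share of each pool; red points are Col6a1-/- libraries, blue points wildtype libraries, and numbers are replicates. The lowest Kitl values are in wildtype replicates 1 and 2, at male shares of 0.347% and 3.35%, and every Kit value of a Col6a1-/- library lies below every wildtype value.

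The log2 ratio of Kitl to Kit was 0.26, -0.28 and 0.19 in Col6a1-/- replicates 1, 2 and 3, against -0.91, -0.76 and -0.14 in wildtype replicates 1, 2 and 3. Wildtype replicate 3 lay above Col6a1-/- replicate 2, and the difference of means was 0.66 (exact permutation test, two-sided, p = 0.2, where 0.1 is the smallest p that 3 against 3 libraries allow). None of the 14 tested genes of the KIT pathway passed the limma threshold, 6 had an unadjusted p below 0.05, and in the authors' deposited table, 2 were lower and none higher. These were Ptpn11, the phosphatase SHP-2, with a limma log2 fold change of -0.29 (adjusted p 0.115), and Cbl, a ubiquitin ligase that downregulates receptor kinases, with -0.37 (0.119). Ptpn6, the phosphatase SHP-1, and Fyn, a Src family kinase, followed by unadjusted p, at -0.38 (0.147) and -0.20 (0.197). The median of the list was -0.14.

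Apln (ENSMUSG00000037010.7, chromosome X, 48025146 to 48034853, minus strand) had 2583, 2144 and 2602 normalized counts in Col6a1-/- replicates 1, 2 and 3, against 2808, 2536 and 2843 in wildtype replicates 1, 2 and 3. The lowest value was in Col6a1-/- replicate 2 and the genotypes overlapped. The level was 89.5% of wildtype, with a log2 fold change of -0.16 (SE 0.10, limma adjusted p 0.381), and the 95% interval of the fitted fold ran from 76.5% to 104.2%. The estimate was -0.07 without Col6a1-/- replicate 2, the all-male pool, and -0.08 with male share as a covariate (adjusted p 0.699 and 0.918). Aplnr (ENSMUSG00000044338.9, chromosome 2, 85136225 to 85139923, plus strand) had 4225, 3365 and 4011 normalized counts in Col6a1-/- replicates 1, 2 and 3, against 4141, 3411 and 3981 in wildtype replicates 1, 2 and 3. Its means were nearly equal, 3867 ± 447 in Col6a1-/- and 3844 ± 384 in wildtype lungs, with a log2 fold change of 0.0069, an adjusted p of 0.98 and a 95% interval from 84.7% to 119.2% of wildtype.

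Apln and Aplnr were both lowest in replicate 2 of each genotype, and their ratio varied less than either gene. The log2 ratio of ligand to receptor was -0.71, -0.65 and -0.62 in Col6a1-/- replicates 1, 2 and 3, against -0.56, -0.43 and -0.49 in wildtype replicates 1, 2 and 3. All Col6a1-/- ratios lay below all wildtype ratios, with means of -0.66 ± 0.04 in Col6a1-/- and -0.49 ± 0.07 in wildtype lungs and a difference of -0.17 (exact permutation test, two-sided, p = 0.1, the smallest possible). The share of gene pairs whose ratios do not overlap was not determined. Among single tested genes, 24.9% did not overlap. The part of sex in this ratio was not tested. Apela, the other known ligand of the receptor, was at or below 5 normalized counts in every library and was not tested. Of the 12 apelin pathway genes 11 were tested. None passed limma, 3 had an unadjusted p below 0.05, and 1, lower, passed in the authors' deposited table. That gene was Arrb1, a beta-arrestin that binds activated receptors, with a limma log2 fold change of -0.40 (adjusted p 0.0893). Furin, a proprotein convertase, had -0.27 (0.14), and Nos3, the endothelial nitric oxide synthase, had -0.25 (0.248).

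Ednrb (ENSMUSG00000022122.15, chromosome 14, 103814625 to 103844402, minus strand), the type B endothelin receptor that clears endothelin from lung blood, had 4029, 3633 and 3528 normalized counts in Col6a1-/- replicates 1, 2 and 3, against 3085, 3419.6 and 3473 in wildtype replicates 1, 2 and 3. The genotypes did not overlap, but Col6a1-/- replicate 3 and wildtype replicate 3 lay close together. The level was 112.1% of wildtype, with a log2 fold change of 0.16 (SE 0.09, limma adjusted p 0.327) and a 95% interval from 97.6% to 128.8%. The estimate was 0.26 with each library centred on its pan-endothelial genes and 0.08 with male share as a covariate (adjusted p 0.145 and 0.896). With the length and GC trend removed it was 0.11 (adjusted p 0.363) and the genotypes overlapped. There Col6a1-/- replicate 3, at 11.77 on the log2 scale, lay below wildtype replicate 2, at 11.82. Ednrb is also expressed by other cells of the lung, and its transcripts cannot be assigned to aerocytes here.

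Of the 8 endothelin pathway genes, 6 were tested and none passed limma, 2 had an unadjusted p below 0.05, and in the authors' deposited table, 1 was higher and 1 lower. The higher gene was Edn1, which encodes endothelin-1, a ligand of Ednrb. It had 1166, 1206 and 1181 normalized counts in Col6a1-/- libraries, against 885, 882 and 949 in wildtype libraries, a limma log2 fold change of 0.39 (adjusted p 0.0939; 0.0176 in the authors' deposited table). The lower gene was Ece1, the enzyme that cleaves the endothelin-1 precursor, with 14812, 15092 and 13304 in Col6a1-/- and 19939, 19944 and 17441 in wildtype libraries, a limma log2 fold change of -0.41 (adjusted p 0.0954; 0.00723 in the authors' deposited table). Ligand and enzyme did not overlap between genotypes, in opposite directions. Edn3, another ligand, and Ednra, the type A receptor, had limma log2 fold changes of 0.19 and -0.08 (adjusted p 0.317 and 0.667).

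Car4 (ENSMUSG00000000805.18, chromosome 11, 84957786 to 84966044, plus strand), a carbonic anhydrase anchored to the capillary surface that speeds the exchange of carbon dioxide and bicarbonate, showed no difference beyond the spread between libraries. It had 5466, 6064 and 6075 normalized counts in Col6a1-/- replicates 1, 2 and 3, against 5823, 6407 and 6005 in wildtype replicates 1, 2 and 3. The level was 96.5% of wildtype, with a log2 fold change of -0.05 (SE 0.09, limma adjusted p 0.763), and the 95% interval ran from 84.5% to 110.2%. Of the 16 carbonic anhydrase genes 12 were tested, and none passed limma or in the authors' deposited table, while 4 had an unadjusted p below 0.05. Car3, a cytosolic form abundant in fat and muscle, had the smallest unadjusted p with a log2 fold change of 1.31 (adjusted p 0.0869), followed by Car5b, a mitochondrial form, at 0.30 (0.18), Car11, a catalytically inactive relative, at 0.66 (0.187) and Car8, also inactive, at 0.20 (0.205).

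Gpihbp1 (ENSMUSG00000022579.10, chromosome 15, 75596628 to 75599481, plus strand) carries lipoprotein lipase across capillary cells to the lumen. Gpihbp1 had 4263, 4675 and 5115 normalized counts in Col6a1-/- replicates 1, 2 and 3, against 5071, 4934 and 4237 in wildtype replicates 1, 2 and 3. The genotypes overlapped throughout, at 98.7% of wildtype, with a log2 fold change of -0.02 (SE 0.10, limma adjusted p 0.938) and a 95% interval from 84.3% to 115.5%. Capillaries of fat and heart also express Gpihbp1. Fat genes summed to 7905 to 12945 normalized counts in Col6a1-/- and 2726 to 6711 in wildtype libraries, and Ucp1, the brown fat gene of that list, had at most 4.39 in any library.

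Of the 13 genes of the lipoprotein lipase pathway 9 were tested, none passed limma, 3 had an unadjusted p below 0.05, and 1 higher and 1 lower passed in the authors' deposited table. Fabp4, a fatty acid binding protein of fat and capillary endothelium and a member of the fat list, had a limma log2 fold change of 1.21 (adjusted p 0.0792). Angptl4, a secreted inhibitor of lipoprotein lipase, had 2624, 1543 and 2879 normalized counts in Col6a1-/- libraries, against 3758, 3445 and 3317 in wildtype libraries, with a limma log2 fold change of -0.63 (adjusted p 0.132; 0.0315 in the authors' deposited table). The genotypes did not overlap for Angptl4, and Col6a1-/- replicate 2 lay lowest. Lpl itself, the lipase, stood at 0.16 (adjusted p 0.458). Fabp5, a related binding protein, and Vldlr, a lipoprotein receptor, had 0.27 (0.189) and 0.22 (0.252).

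Tbx2 (ENSMUSG00000000093.6, chromosome 11, 85832551 to 85841948, plus strand) and Tbx3 (ENSMUSG00000018604.18, chromosome 5, 119670669 to 119684724, plus strand) are closely related T-box transcription factors, which act in lung mesenchyme as well. Tbx2 had 11272, 13187 and 11640.1 normalized counts in Col6a1-/- replicates 1, 2 and 3, against 12106, 12161 and 10501 in wildtype replicates 1, 2 and 3. Tbx3 had 5981, 5382 and 5266 in Col6a1-/- replicates 1, 2 and 3, against 5666, 5589.9 and 5109.9 in wildtype replicates 1, 2 and 3. Both overlapped between genotypes. Tbx2 stood at 103.8% of wildtype (log2 fold change 0.05, SE 0.10, limma adjusted p 0.788, 95% interval 89.0% to 121.1%) and Tbx3 at 101.6% (0.02, SE 0.09, adjusted p 0.915, 88.6% to 116.4%). With the length and GC trend removed, neither gene overlapped any longer. On the log2 scale Tbx2 lay at 13.57 to 13.58 in Col6a1-/- and 13.41 to 13.53 in wildtype lungs (estimate 0.11, adjusted p 0.333). Tbx3 lay at 12.42 to 12.60 in Col6a1-/- and 12.31 to 12.34 in wildtype lungs (estimate 0.18, adjusted p 0.174). The share of all genes not overlapping on this scale was not determined.

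Of the 17 T-box genes 11 were tested, and none passed limma or in the authors' deposited table. None had an unadjusted p below 0.05, and all overlapped between genotypes in normalized counts. The smallest unadjusted p values belonged to Tbx18, a factor of mesenchymal and mural cells, with a limma log2 fold change of 0.69 (adjusted p 0.284), to Tbx4 and Tbx5, factors of lung bud mesenchyme, with -0.20 (0.284) and -0.17 (0.358), and to Mga, a T-box protein that also binds MAX, with -0.20 (0.399). The fibroblast and pericyte list had 3 of 11 genes with higher and 8 with lower estimates, none called by limma and 5 with an unadjusted p below 0.05. It summed to 186384 to 206108 normalized counts in Col6a1-/- and 186324 to 201186 in wildtype libraries.

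**Figure D3:**
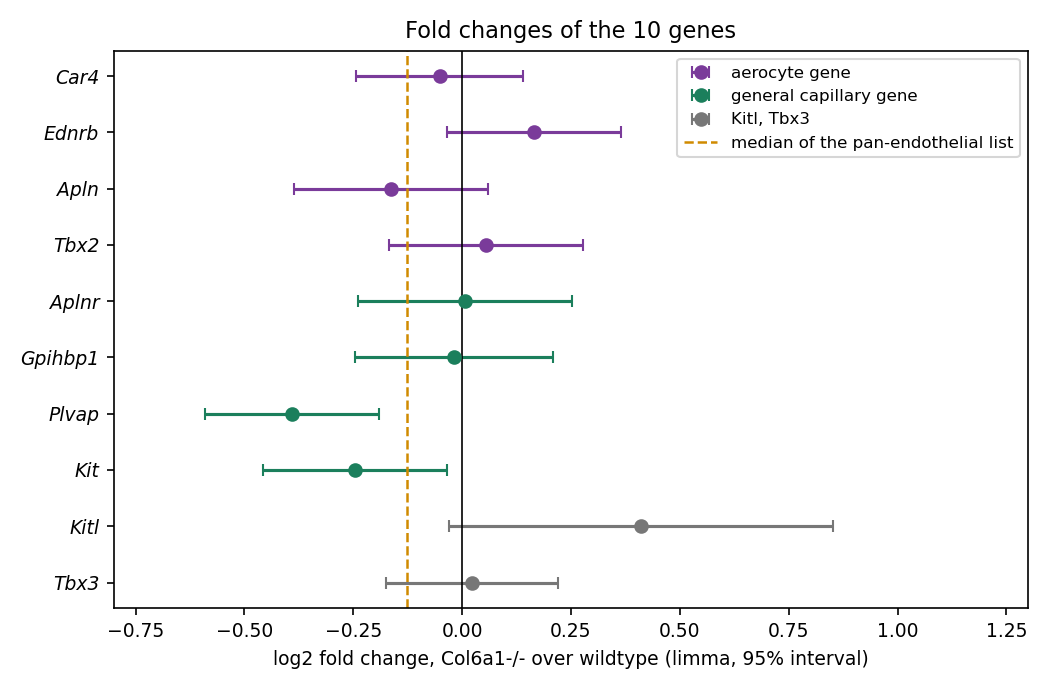
Log2 fold change of each gene, Col6a1-/- over wildtype, with its 95% interval from limma (horizontal axis), coloured by the cell type the gene marks; the dashed line is the median of 24 pan-endothelial genes, -0.13. The intervals of Plvap and Kit lie below 0 before adjustment and those of the other 8 genes include 0.

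Pan-endothelial genes were set beside the members as a measure of endothelium in general. All 24 listed genes were tested, none passed limma, 7 had an unadjusted p below 0.05, 18 had lower and 6 higher estimates in Col6a1-/- lungs, and the median log2 fold change was -0.13. In the authors' deposited table, 3 were lower and 1 higher. The lower ones were Cdh5, the cadherin of endothelial junctions, Flt1, a VEGF receptor, and Pecam1, an adhesion molecule, with limma log2 fold changes of -0.35, -0.39 and -0.29 (adjusted p 0.132, 0.111 and 0.15). The higher one was Sox17, a transcription factor of arterial endothelium, at 0.44 (0.0815). The mean log2 level of the list, relative to the 6 libraries, was -0.04, -0.04 and -0.06 in Col6a1-/- replicates 1, 2 and 3, against 0.08, 0.04 and 0.02 in wildtype replicates 1, 2 and 3.

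With each library centred on these 24 genes, which moved the median of all tested genes to 0.10, Plvap had a log2 fold change of -0.29 (adjusted p 0.114) and Kit of -0.15 (0.341). Relative to the pan-endothelial mean, Plvap stood at 0.98, 1.09 and 1.08 in Col6a1-/- replicates 1, 2 and 3, against 1.37, 1.28 and 1.37 in wildtype replicates 1, 2 and 3 on the log2 scale, still without overlap. Kit stood at -0.11, -0.10 and -0.34 in Col6a1-/-, against -0.08, -0.04 and 0.02 in wildtype libraries, also without overlap, though the nearest libraries differed by little. Gpihbp1 and Aplnr, the other general capillary genes, overlapped on this scale too. Ednrb and Tbx3 did not overlap, with Col6a1-/- libraries above wildtype libraries. Ednrb lay at -1.29 to -1.13 in Col6a1-/- and -1.63 to -1.40 in wildtype libraries, and Tbx3 at -0.71 to -0.56 and -0.84 to -0.73. The share of all genes not overlapping on this scale was not determined.

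**Figure D4:**
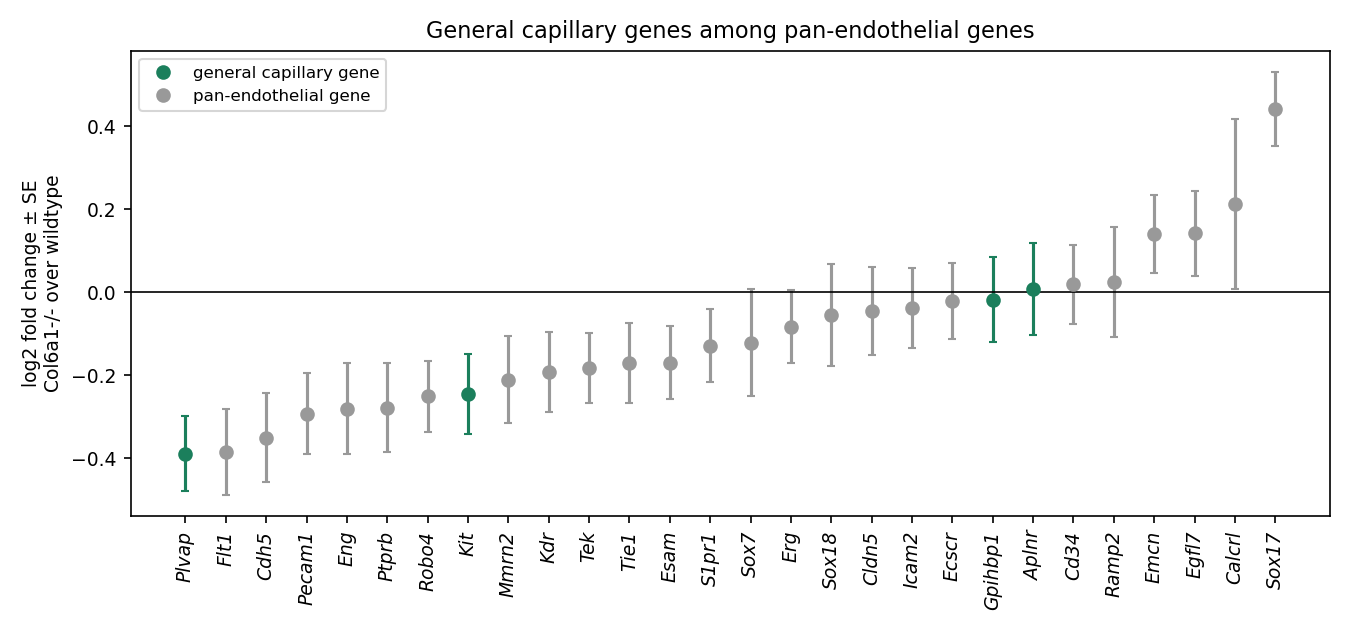
Log2 fold change with its SE from limma, Col6a1-/- over wildtype (vertical axis), for the 4 general capillary genes (green) among 24 pan-endothelial genes (grey), ordered by estimate. Plvap has the lowest estimate of the genes drawn, -0.39, next to Flt1, and Gpihbp1 and Aplnr lie near 0.

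Further genes listed for the capillary cell types also differed in direction. Of 11 more aerocyte genes none passed limma, 3 had an unadjusted p below 0.05, 4 had higher and 7 lower estimates, and the median was -0.07. Nrp1, a co-receptor for VEGF and semaphorins, was the one lower in the authors' deposited table, with 9737, 8666 and 7648 normalized counts in Col6a1-/- libraries, against 12090.3, 11729 and 11235 in wildtype libraries (limma log2 fold change -0.43, adjusted p 0.0942). Sirpa, the receptor for CD47, Prx, the scaffold protein periaxin, and Kdr, a VEGF receptor, followed with -0.23, -0.27 and -0.19 (adjusted p 0.153, 0.204 and 0.282). Kdr is also in the pan-endothelial list, and other genes too stand in more than 1 list, so the lists are not independent. Of 10 more general capillary genes none passed limma, 5 had an unadjusted p below 0.05, 5 had higher and 5 lower estimates, and the median was -0.07. Hpgd, the enzyme that inactivates prostaglandins, was the one higher in the authors' deposited table (limma log2 fold change 0.57, adjusted p 0.119), and it overlapped between genotypes, with 16757 in wildtype replicate 3 and 16394 in Col6a1-/- replicate 2. Glp1r, the receptor for GLP-1, Ackr3, a scavenging chemokine receptor, and Cd93, a C-type lectin-like receptor, had -0.37, -0.28 and -0.37 (adjusted p 0.158, 0.172 and 0.175).

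The larger vessel lists were chosen with earlier results of these data known, so which list holds called genes is not a result. Limma called Vwf and Slc6a2 lower among 9 tested venous genes, beside 0.0474% of all tested genes. Of the 9, 8 had lower and 1 a higher estimate, and 4 had an unadjusted p below 0.05. No gene was called among the 10 tested arterial and 7 tested lymphatic genes, 3 of each with an unadjusted p below 0.05. Estimates were higher for 5 and lower for 5 arterial genes, and higher for 2 and lower for 5 lymphatic genes. Vwf, the von Willebrand factor, fell by 0.67 on the log2 scale (adjusted p 0.0468) and Slc6a2, a noradrenaline transporter, by 0.75 (0.0481). No gene at all, Vwf, Slc6a2 and Col6a1 included, passed without Col6a1-/- replicate 3, without wildtype replicate 1 or with male share as a covariate. The authors' deposited table also has Gja5, a connexin of arteries, and Lyve1 and Flt4, receptors of lymphatic endothelium, lower. Their limma log2 fold changes were -0.55, -0.65 and -0.43 (adjusted p 0.0939, 0.0786 and 0.0967). Sox17, which is in the arterial list too, is higher in the authors' deposited table (limma log2 fold change 0.44, adjusted p 0.0815). Plvap is also expressed in venules, and whether its lower value lies in capillaries or in veins cannot be told apart in whole lobes. Alveolar type 1 cells, the epithelium that lies against aerocytes, had no gene called by limma among 9 tested (1 at an unadjusted p below 0.05), with summed levels of 237615 to 252301 normalized counts in Col6a1-/- and 241405 to 254122 in wildtype libraries.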

How the data were processed

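Each value of the deposited expression table is a signal, a gene's normalized count in 1 library, which the authors made with DESeq2, per the name of the table. The submitters' processing notes name build GRCm38.p5, DESeq2 1.16.1 in R 3.4.1, featureCounts (Subread 1.5.0p3), STAR 2.5.2b and Trimmomatic 0.36, without roles. Annotation and strand setting: not given in the sources used here. Their comparison table, also deposited by the authors, gives a mean and a test statistic (each a score here), a log2 fold change, a p-value and its adjusted value. The column of wildtype replicate 2 carries the added word New, unexplained. Every value was a whole number of reads divided by 1 size factor per library (100% within 1e-06). In Col6a1-/- replicate 3 that factor, 1.0003, is too close to 1 for this to test the recovery. Members had 1961 to 24583 reads in each library.

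Genes with at least 10 normalized counts in at least 3 libraries were tested in R 4.3.3 by the two-sided limma-trend test (limma 3.58.1). It used log2(normalized count + 1) and was Benjamini-Hochberg adjusted over all tested genes at 0.05. Fold changes are on that scale, except those of the authors' deposited table and of DESeq2. Percentages of wildtype are ratios of mean normalized counts, and 95% intervals come from limma. Replicates are separate pools, numbered in accession order. Members and gene lists were chosen with earlier results of these data known. Beyond the members, up to 4 genes per pathway or endothelial list with the smallest unadjusted p (1 such gene is not reported here) and defining markers of other cell types (Cpa3, Mcpt4, Tpsab1, Ucp1) were named by rule. Lpl, Cav1, Apela, Gata2, Hdc, Xist, Ddx3y and Kdm5d were named after their values were seen. Symbols, positions and longest transcripts came from GENCODE M21 on GRCm38, which matched 95.3% of rows. Male share is the mean of 4 Y-linked genes relative to Col6a1-/- replicate 2. Alternatives were other pseudocounts, filters and centrings, edgeR 4.0.16 and DESeq2 1.42.0 on recovered reads, male share, a length and GC trend (splines of 5 degrees of freedom each), pool number and each library left out. The test was checked on simulated counts. Figures were drawn with Python 3.11.15.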

Additional observations from a re-analysis of the deposited data

How the results depend on the processing

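The number of genes called depended on the setting. Against 11, it was 93 with no filter, 7 with a filter at 50, 26 with median centring, 81 with the length and GC trend removed, 742 with DESeq2, 0 by limma with male share as a covariate (1306 at an unadjusted p below 0.05), and 0 to 1383 when a library was left out: 0 by limma without Col6a1-/- replicate 3 or without wildtype replicate 1 (1979 and 1902 at an unadjusted p below 0.05), 2 without wildtype replicate 2, 47 without Col6a1-/- replicate 2 and 1383 without wildtype replicate 3. Against no member called, 1 was called with the length and GC trend removed and 1 with DESeq2, and 0 to 2 when a library was left out, the 2 being Plvap and Kitl without wildtype replicate 3. The other 8 members were called in no fit. The animal numbers in the pool names are shared between genotypes, but the animals are not; same-numbered pools had correlations of -0.14, 0.11 and -0.01 in their deviations, and the fit with pool number as a replicate block called 7 genes, 6 of them among the 11, and no member.

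Plvap, Kit, Kitl, Ednrb and Apln kept their sign in all 17 alternative fits. Estimates near 0 changed sign: Aplnr was -0.031 and Tbx3 -0.016 with median centring, Car4 was 0.044 and Gpihbp1 0.076 with pan-endothelial centring, and Gpihbp1 was 0.19 with male share as a covariate. With a library left out, Aplnr ran from -0.077 to 0.10, Gpihbp1 from -0.10 to 0.047, Tbx2 from -0.015 to 0.10 and Tbx3 from -0.034 to 0.058. The cause was not tested. The log2 ratio differences ran from -0.20 to -0.14 for Apln to Aplnr and from 0.50 to 0.89 for Kitl to Kit. The 95% intervals of Car4, Tbx2, Aplnr, Gpihbp1 and Tbx3, over 3 pools per genotype, lie between 84.3% and 121.1% of wildtype.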
